A study of Mus musculus with 12 samples.

Results

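The natriuretic peptide system of the mouse left ventricle was followed over 7 genes, chosen by symbol from the 17471 genes listed for each library. They are the peptide genes Nppa, Nppb and Nppc, the receptor genes Npr1, Npr2 and Npr3, and Corin. RNA was sequenced from left ventricles of mice aged 6 to 10 weeks, taken at day 4 after a myocardial infarction (MI), made by tying off the left anterior descending artery for good, or after sham surgery. Every mouse carried floxed Yap alleles and ate a tamoxifen citrate diet from the time of surgery. Cre-positive mice also had 1 copy of the tamoxifen-activated recombinase MerCreMer at the endogenous periostin locus, while their Cre-negative siblings had wildtype periostin. The groups were Cre-positive MI, Cre-negative MI, Cre-positive sham and Cre-negative sham, with 3 libraries each.

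In this design the recombinase acts in cells that express periostin, mainly activated fibroblasts after injury. Loss of Yap in those cells and the presence of the MerCreMer allele itself cannot be told apart, since no mouse had the allele without floxed Yap. The labels number the replicates within each group and do not state that each library is a separate mouse, so p-values measure the spread between these samples, which may be technical. In whole ventricle, fewer cells of a type and less RNA per cell cannot be told apart either, which holds for every fold change given here.

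Atrial natriuretic peptide (ANP, from Nppa) and B-type natriuretic peptide (BNP, from Nppb) are hormones that cardiomyocytes secrete under stretch, and both promote salt excretion and relax vessels. In the adult heart Nppa is mainly an atrial gene that the ventricle makes again under load or after injury. C-type natriuretic peptide (from Nppc) is mostly a local signal of endothelium and growing cartilage. Corin is a membrane-bound serine protease of cardiomyocytes that cuts pro-ANP to the active hormone. Npr1 encodes guanylyl cyclase A, which ANP and BNP activate to make cyclic GMP, and Npr2 encodes guanylyl cyclase B, the receptor of C-type natriuretic peptide. Npr3 encodes the clearance receptor, which has no cyclase domain and removes all 3 peptides from the circulation.

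The natriuretic peptides share a ring closed by a disulfide bond, which is the part that binds the receptors. The coding stretch of this ring is 51 bases long (17 residues) and is shown for Nppb and Nppc from the GENCODE M21 mouse transcripts, because the ring is what makes these genes a family. Capitals mark the 40 bases that are the same in both genes.
Nppb: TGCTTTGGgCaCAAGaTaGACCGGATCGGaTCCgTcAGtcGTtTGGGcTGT
Nppc: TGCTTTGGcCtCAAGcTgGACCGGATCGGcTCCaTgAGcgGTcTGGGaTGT

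On mm10 (GRCm38.p6) Nppb (Entrez 18158) lies on chromosome 4 from 147985786 to 147987205. Nppa (Entrez 230899) lies 13.5 kb further on the same strand, from 148000722 to 148002074. Nppc (Entrez 18159) lies on chromosome 1 from 86666293 to 86670573, and Corin (Entrez 53419) on chromosome 5 from 72299948 to 72504540. Npr1 (Entrez 18160) lies on chromosome 3 from 90450591 to 90465928, Npr2 (Entrez 230103) on chromosome 4 from 43629015 to 43651437, and Npr3 (Entrez 18162) on chromosome 15 from 11839896 to 11907837. In the annotation Npr2 overlaps the gene Spag8, which had at most 0.50 CPM in any library. Npr3 overlaps Gm5144, and Corin overlaps Gm25768, Gm19560 and Gm23712. Counts of Npr3 were not whole numbers, as RSEM gives them where reads match more than 1 place. Npr2 counts were not whole in replicate 2 of Cre-positive sham (1075.99) and of Cre-negative sham (785.97).

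Upstream sequence is shown for Nppa and Nppb, which both rose after infarction, and for Corin, which fell. The 250 bases upstream of the RefSeq start were examined for every member. They were searched on both strands for the letters bound by TEAD factors, the DNA-binding partners of YAP (GGAATG), by GATA factors (GATAA), by NKX2-5 (AAGTG) and by T-box factors (TCACACC), for the CArG box of serum response factor, and for TATAAA on the coding strand. Capitals mark every match, and no 2 matches overlapped. For Nppb only the 27 bases with the TEAD and GATA letters are shown. The start used for the Nppb window, 147985900, lies 114 bases inside the annotated gene, so these 27 bases are upstream of that start but belong to the untranslated first exon of a longer annotated transcript. The sequences are from RefSeq, build GRCm38.p6, written 5′ to 3′ on the strand of the gene.
Nppa, chr4:148000472-148000721, plus strand: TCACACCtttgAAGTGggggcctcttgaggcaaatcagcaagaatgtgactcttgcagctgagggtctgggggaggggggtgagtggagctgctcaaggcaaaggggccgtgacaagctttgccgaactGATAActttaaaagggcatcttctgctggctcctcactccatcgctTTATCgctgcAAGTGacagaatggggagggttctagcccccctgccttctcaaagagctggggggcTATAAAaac
Nppb, chr4:147985795-147985821, plus strand: GGAATGcagctGATAAatcagaGATAA
Corin, chr5:72504541-72504790, minus strand: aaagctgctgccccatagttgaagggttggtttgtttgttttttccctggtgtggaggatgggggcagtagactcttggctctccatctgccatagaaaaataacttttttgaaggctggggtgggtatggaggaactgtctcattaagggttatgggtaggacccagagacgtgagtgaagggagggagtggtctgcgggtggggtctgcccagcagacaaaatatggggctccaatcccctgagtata

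The Nppb window held the TEAD letters 105 bases upstream of that start, the GATA letters at 94 and 83 bases and TATAAA at 31 bases. The Nppa window held the T-box letters at 250 bases, the NKX2-5 letters at 239 and 65 bases, the GATA letters at 121 and 75 bases and TATAAA at 9 bases. The Corin window held none of these letters. The same was so for Npr2 and Npr3, which fell, and for Npr1, which was not called. The Nppc window held only TATAAA, at 29 bases. Of 32851 windows of the same length, 12.6% held the TEAD letters, 22.6% the GATA letters, 40.7% the NKX2-5 letters, 3.33% the T-box letters, 1.47% a CArG box and 7.59% TATAAA. A match of letters is a description of the sequence, and no binding was measured.

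Total expected counts, RSEM's estimates of reads per gene, were 10257675 to 15176286 per library. CPM are these counts scaled to a common library size after TMM scaling, a correction for differences in RNA composition. Of the 17471 genes 13678 had enough counts to be tested, among them 6 of the 7 members, and Nppc did not pass the filter. Fold changes, their standard errors (SE) and adjusted p-values come from edgeR's quasi-likelihood test with Benjamini-Hochberg adjustment over all genes tested, with calls at an adjusted p under 0.05. Each SE was derived from the log2 fold change and its F statistic, with the spread estimated over all libraries of the fit. The floxed gene Yap1 was read at 84.6 to 96.4 CPM in the 6 MI libraries and 102 to 121 CPM in the 6 sham libraries, and gene counts do not show the floxed exon. Between genotypes its log2 difference was 0.02 ± 0.09 after MI and -0.06 ± 0.09 after sham surgery (SE), neither of them called. After infarction the log2 fold change of Yap1 was -0.25 ± 0.09 in Cre-positive and -0.33 ± 0.09 in Cre-negative hearts, both called. Cre-positive sham replicate 2 stood apart, with 34063 CPM of the slow myosin gene Myh7, where the remaining sham libraries had 377 to 2938 CPM. Reads of Y-linked genes were present in 1 of 3 Cre-positive MI, 3 of 3 Cre-negative MI, 0 of 3 Cre-positive sham and 2 of 3 Cre-negative sham libraries, so sex was spread unevenly over the genotypes.

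Per transcript length, Nppa had the highest level of the 7 genes in every group. It averaged 3515 ± 790 FPKM in Cre-positive MI, 3439 ± 326 in Cre-negative MI, 781 ± 484 in Cre-positive sham and 495 ± 30.7 FPKM in Cre-negative sham hearts (SD, n = 3 each). FPKM scales fragments to transcript length and library size. Nppb averaged 489 ± 109, 510 ± 61.1, 237 ± 126 and 132 ± 13.2 FPKM in the same order of groups. Below them came Corin, Npr2, Npr1, Npr3 and Nppc, in that order in all 4 groups. Neighbours in this order did not overlap between libraries of a group, except Nppa and Nppb in Cre-positive sham, where the highest Nppb library (383 FPKM) lay above the lowest Nppa library (360 FPKM). Ranked by FPKM among all genes, Nppa stood at place 8 to 13 in the 6 MI libraries and at place 39 to 213 in the 6 sham libraries.

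**Figure D1:**
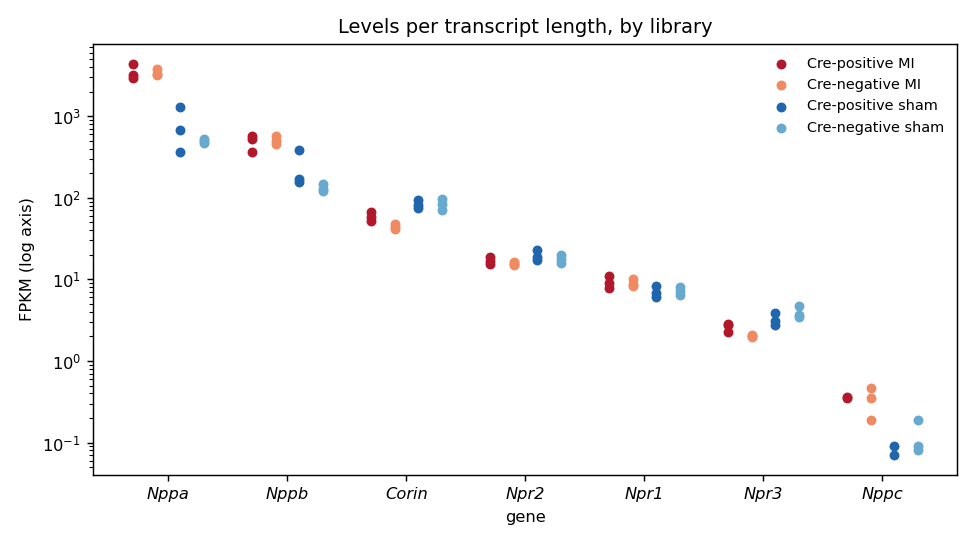
FPKM of each gene (log axis) by library, 1 point per library, coloured by group. Nppa lies highest and Nppc lowest in every group. The 2 libraries with 0 Nppc, 1 Cre-positive MI and 1 Cre-positive sham, cannot be drawn on this axis.

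After infarction the genes of both cardiac hormones rose in Cre-positive hearts, while Corin and the receptor genes Npr2 and Npr3 fell. Nppa had 2298, 2569 and 3477 CPM in Cre-positive MI, against 619, 1231 and 333 CPM in Cre-positive sham libraries. Every MI library was higher than every sham library, and sham replicate 2 was the highest of its group. Nppa rose 3.82-fold, a log2 fold change of 1.93 ± 0.36 (adjusted p = 0.000862, SE, n = 3 per group). Without sham replicate 2 it was 2.50 ± 0.26.

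Nppb had 373, 267 and 408 CPM in Cre-positive MI, against 141, 325 and 132 CPM in Cre-positive sham libraries. The groups overlapped, because sham replicate 2 lay within the range of the MI libraries. Nppb rose 1.75-fold, a log2 fold change of 0.81 ± 0.29 (adjusted p = 0.0366). Without that library it was 1.32 ± 0.17, with an adjusted p of 4.41e-05. The call ended without Cre-positive MI replicate 1 or 3 or without Cre-positive sham replicate 1 or 3 (adjusted p = 0.0914, 0.12, 0.113 and 0.123, where all alternatives ranged from 4.41e-05 to 0.123).

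Corin had 259, 313 and 235 CPM in Cre-positive MI, against 405, 504 and 444 CPM in Cre-positive sham libraries. The groups did not overlap, and Corin fell 1.68-fold, a log2 fold change of -0.74 ± 0.15 (adjusted p = 0.00141).

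Among the receptors in Cre-positive hearts, the clearance receptor gene Npr3 had 18.0, 19.0 and 14.7 CPM in MI, against 23.4, 30.4 and 21.5 CPM in sham libraries. It fell with a log2 fold change of -0.54 ± 0.16 (adjusted p = 0.0175), and the groups did not overlap. The call ended without Cre-positive MI replicate 3 (adjusted p = 0.0749, the highest over all alternatives, which began at 0.00563). Npr2, the receptor gene of C-type natriuretic peptide, had 66.9, 62.7 and 55.9 CPM in MI, against 79.9, 98.6 and 73.2 CPM in sham libraries. Its log2 fold change was -0.44 ± 0.12 (adjusted p = 0.00939), again with no overlap. Npr1, the receptor gene of ANP and BNP, had 41.5, 36.0 and 29.8 CPM in MI and 30.2, 37.9 and 27.5 CPM in sham libraries. These groups overlapped, and the log2 difference of 0.16 ± 0.15 was not called (adjusted p = 0.378, 95% interval -0.15 to 0.48).

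In all, 2 of the 6 tested members rose and 3 fell in Cre-positive hearts after infarction, in a comparison where 25.7% of all tested genes rose and 19.5% fell. With so many genes changed, the share of members called (5 of 6) stands beside a background of 45.2%. MI and sham libraries did not overlap for 4 of the 6 members, the exceptions being Nppb and Npr1, and for 51.1% of all genes tested. The median log2 fold change was -0.14 over the 6 members and 0.02 over all genes tested. The authors' deposited table for this comparison gave adjusted p-values of 1.90e-05 for Nppa, 0.0751 for Nppb, 0.0186 for Npr2, 0.0228 for Npr3 and 1.76e-05 for Corin. Nppb was thus not called there.

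**Figure D2:**
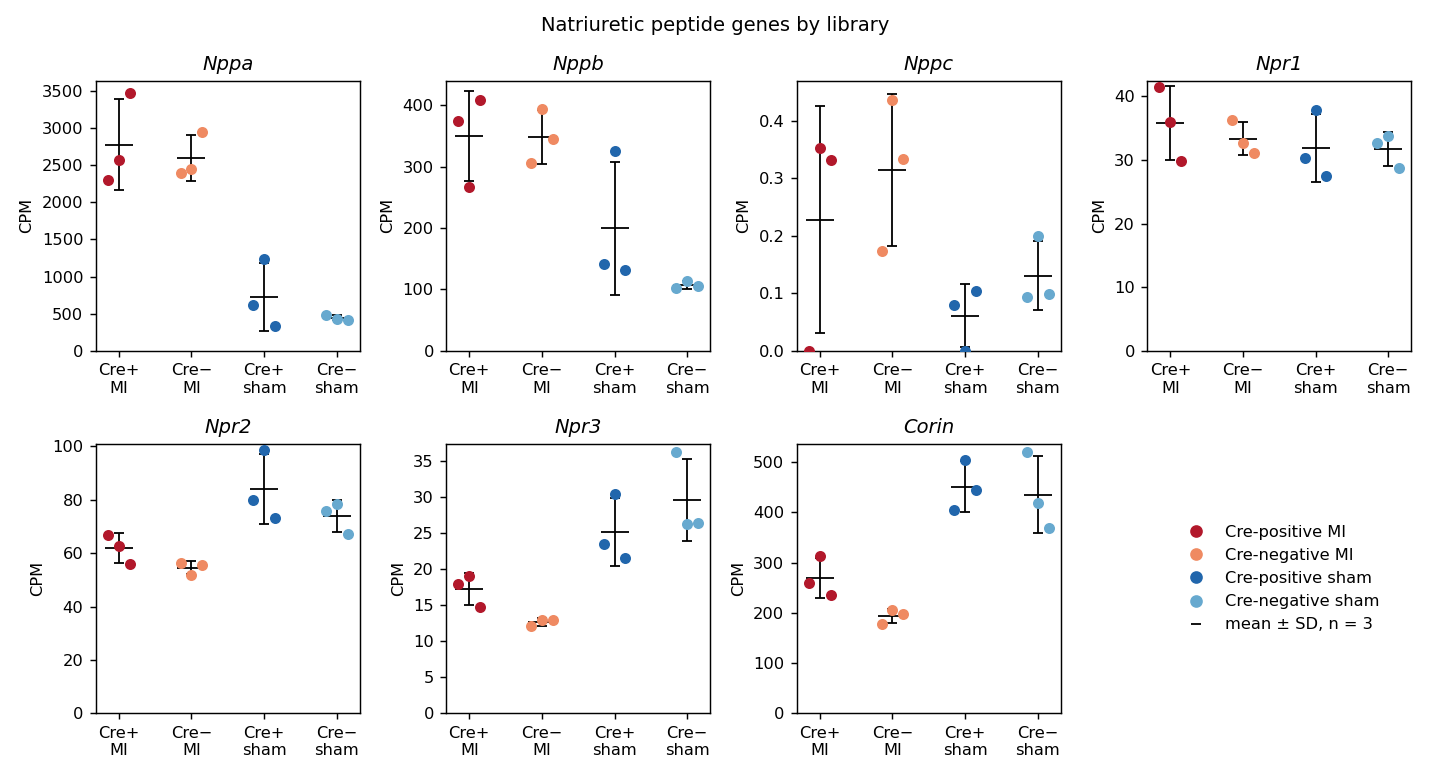
CPM of each gene by library in 4 groups (Cre+ for Cre-positive, Cre− for Cre-negative), with the mean and SD of 3 libraries, on axes that start at 0. Nppa is higher in all MI libraries than in any sham library, while Corin, Npr2 and Npr3 are lower in the MI than in the sham libraries of each genotype.

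The same 5 genes were called in Cre-negative hearts after infarction, in the same directions. Nppa had 2394, 2457 and 2953 CPM in Cre-negative MI, against 485, 428 and 419 CPM in Cre-negative sham libraries. The groups lay far apart, with a narrow spread in the sham libraries. Nppa rose 5.86-fold, a log2 fold change of 2.55 ± 0.36 (adjusted p = 9.11e-05, SE, n = 3 per group).

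Nppb had 306, 394 and 345 CPM in Cre-negative MI, against 101, 114 and 105 CPM in Cre-negative sham libraries. The groups did not overlap, and Nppb rose 3.26-fold, a log2 fold change of 1.71 ± 0.29 (adjusted p = 0.000398). Corin had 177, 206 and 197 CPM in Cre-negative MI, against 519, 418 and 369 CPM in Cre-negative sham libraries. Every MI library was below every sham library, and Corin fell 2.25-fold, a log2 fold change of -1.17 ± 0.15 (adjusted p = 3.67e-05).

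Npr3 had 12.1, 13.0 and 12.9 CPM in Cre-negative MI, against 36.1, 26.3 and 26.3 CPM in Cre-negative sham libraries. It fell 2.34-fold with no overlap, a log2 fold change of -1.23 ± 0.17 (adjusted p = 6.16e-05). Npr2 had 56.2, 51.8 and 55.6 CPM in MI, against 75.8, 78.5 and 67.1 CPM in sham libraries. It fell, again with no overlap, and its log2 fold change was -0.44 ± 0.12 (adjusted p = 0.00822). Npr1 had 36.2, 32.7 and 31.2 CPM in MI and 32.6, 33.7 and 28.8 CPM in sham libraries. These overlapped, and its log2 difference of 0.07 ± 0.15 was not called (adjusted p = 0.692, 95% interval -0.24 to 0.39).

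In Cre-negative hearts 2 of 6 tested members rose and 3 fell, where 29.9% of all tested genes rose and 24.4% fell. The 5 of 6 members called stand beside a background of 54.3%. The libraries of the 5 called members did not overlap between MI and sham, as was so for 67.8% of all genes tested. The authors' deposited table called the same 5 genes, with log2 fold changes of 2.52 for Nppa, 1.68 for Nppb, -0.46 for Npr2, -1.26 for Npr3 and -1.20 for Corin. The median log2 fold change over the 6 members was -0.18, and over all genes tested it was 0.02.

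Nppc was close to absent. It had 0, 5 and 5 reads in Cre-positive MI and 3, 7 and 5 reads in Cre-negative MI, against 1, 0 and 1 reads in Cre-positive sham and 1, 2 and 1 reads in Cre-negative sham libraries. Summed over a group and scaled by depth, the ratio of MI to sham was 4.40 in Cre-positive hearts (95% counting interval 0.938 to 41.3) and 2.84 in Cre-negative hearts (0.906 to 11.8). Both intervals include equal levels and cover counting error only. In a single library, a floor of 3 reads equals 0.198 to 0.292 CPM before TMM scaling.

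**Figure D3:**
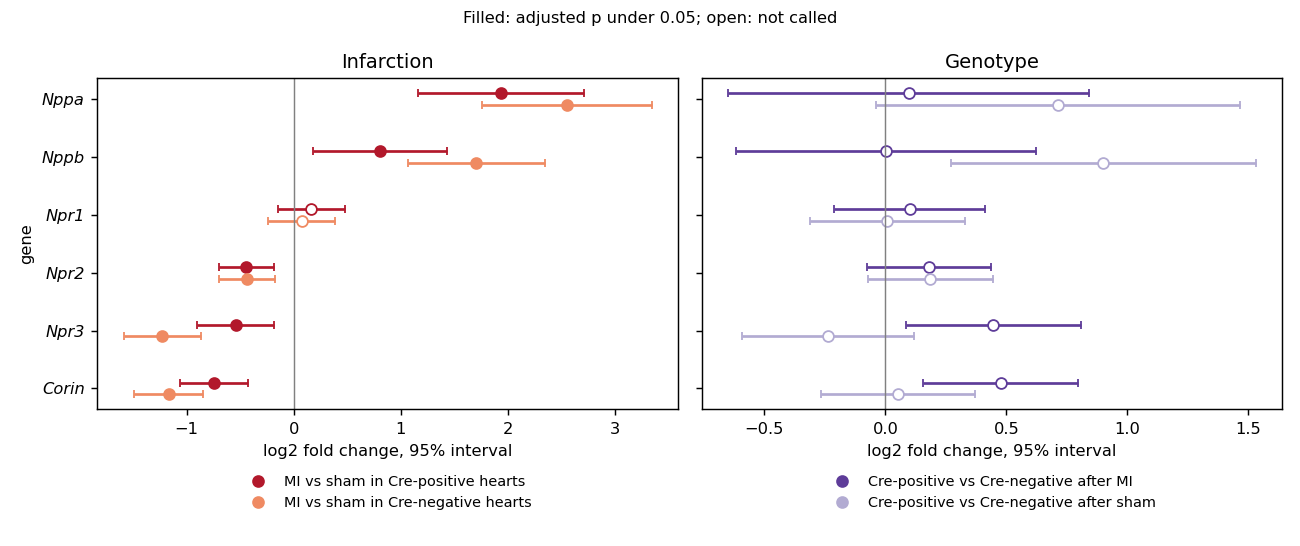
Log2 fold changes of the 6 tested members with 95% intervals, for MI over sham in each genotype (left) and for Cre-positive over Cre-negative after each surgery (right). Filled points have an adjusted p under 0.05: Nppa and Nppb lie right of 0 and Npr2, Npr3 and Corin left of 0 after infarction, and no genotype difference is filled.

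Between the genotypes after infarction, no member was called. Corin was higher in every Cre-positive MI library (235 to 313 CPM) than in any Cre-negative MI library (177 to 206 CPM), as was Npr3 (14.7 to 19.0 CPM against 12.1 to 13.0 CPM). The log2 difference was 0.48 ± 0.15 for Corin (SE, n = 3 per group, adjusted p = 0.271 by edgeR) and 0.45 ± 0.17 for Npr3 (adjusted p = 0.308). Groups of libraries did not overlap for 27.2% of all genes tested in this comparison. Over all alternatives the adjusted p ranged from 0.0773 to 0.76 for Corin and from 0.0959 to 0.771 for Npr3.

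The authors' deposited table differed for Corin. It gave a log2 fold change of 0.49 for Cre-positive over Cre-negative MI hearts with an adjusted p of 0.00301, and for Npr3 0.46 with an adjusted p of 0.0811. In the DESeq2 test of all 12 libraries run here, Corin had a log2 difference of 0.48 and an adjusted p of 0.0773. The summed CPM of 12 cardiomyocyte markers moved with Corin, at 80425 to 95849 in Cre-positive MI and 55647 to 76642 in Cre-negative MI libraries, and its part in the difference was not tested.

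The hormone genes were close between the genotypes after infarction. The log2 difference was 0.10 ± 0.34 for Nppa (SE, n = 3 per group, adjusted p = 0.949, 95% interval -0.65 to 0.84) and 0.00 ± 0.29 for Nppb (adjusted p = 0.997, 95% interval -0.62 to 0.62). For Npr1 it was 0.10 ± 0.14 and for Npr2 0.18 ± 0.12, with 95% intervals of -0.21 to 0.41 and -0.08 to 0.44. By edgeR 0 of 13678 genes were called in this comparison (0%), with 1728 at an unadjusted p under 0.05, among them Npr3 and Corin, and DESeq2 called 167 genes and no member.

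After sham surgery Nppb was higher in every Cre-positive library (141, 325 and 132 CPM) than in any Cre-negative library (101, 114 and 105 CPM). Groups did not overlap for 10.6% of all genes tested there. The log2 difference was 0.90 ± 0.29 (SE, n = 3 per group) and was not called by edgeR (adjusted p = 0.582). Nppa differed by 0.71 ± 0.35 (adjusted p = 0.609), and its groups overlapped. Without Cre-positive sham replicate 2 these differences shrank to 0.38 ± 0.16 for Nppb and 0.13 ± 0.23 for Nppa (adjusted p = 0.515 and 0.863, where all alternatives ranged from 0.168 to 0.942 for Nppb and from 0.165 to 0.942 for Nppa).

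The other members in sham hearts differed less. Corin differed by 0.05 ± 0.15, Npr1 by 0.01 ± 0.15, Npr2 by 0.19 ± 0.12 and Npr3 by -0.24 ± 0.16 on the log2 scale, Cre-positive minus Cre-negative, none of them called. The 95% interval was -0.27 to 0.37 for Corin and -0.59 to 0.12 for Npr3. In this comparison 7 of 13678 genes were called by edgeR (0.0512%), with 1125 at an unadjusted p under 0.05, Nppb the only member among them, and 36 genes were called by DESeq2 with no member.

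The injury response itself was then compared between genotypes. The log2 fold change in Cre-positive minus that in Cre-negative hearts was -0.62 ± 0.49 for Nppa, -0.90 ± 0.41 for Nppb, 0.68 ± 0.23 for Npr3 and 0.42 ± 0.21 for Corin (SE), with adjusted p-values of 0.743, 0.609, 0.585 and 0.62. None was called, so the larger changes seen in Cre-negative hearts for these 4 genes were not shown to differ. For Npr2 and Npr1 the difference was -0.01 ± 0.17 and 0.09 ± 0.21. Without Cre-positive sham replicate 2 it was -0.02 ± 0.31 for Nppa, -0.36 ± 0.21 for Nppb, 0.83 ± 0.21 for Npr3 and 0.50 ± 0.20 for Corin, with the same outcome. By edgeR 0 of 13678 genes were called for this difference (0%), with 1116 at an unadjusted p under 0.05, among them Nppb and Npr3, and 34 were called by DESeq2 with no member.

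Cre-positive sham replicate 2 is the library in which both hormone genes were high without infarction. Its Myh7 level stood beside 14336 CPM of the fast myosin gene Myh6, where the remaining 5 had 39836 to 53143 CPM. Ankrd1, a stress-responsive gene of the cardiomyocyte, had 4020 CPM in it and 375 to 1374 CPM in the remaining 5. The skeletal actin gene Acta1, which also belongs to the fetal programme, had 46.9 CPM there, within the 40.9 to 227 CPM of the other sham libraries. Its Npr1, Npr2 and Corin levels (37.9, 98.6 and 504 CPM) were the highest of its group, and Npr3 was as well (30.4 CPM).

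In MI libraries Myh7 was 1207 to 3042 CPM in Cre-positive and 872 to 1669 CPM in Cre-negative hearts, beside 377 to 2938 CPM in the 5 sham libraries other than Cre-positive replicate 2. Nppa was at 2298 CPM or more in all 6 MI libraries. The log2 difference of Myh7 between MI and sham by edgeR was -2.76 ± 1.07 in Cre-positive hearts (SE, n = 3 per group, adjusted p = 0.0531). This value includes sham replicate 2, at 34063 CPM beside 1642 and 1730 CPM in replicates 1 and 3 of its group. In Cre-negative hearts the log2 difference was -0.73 ± 1.01 (adjusted p = 0.567).

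**Figure D4:**
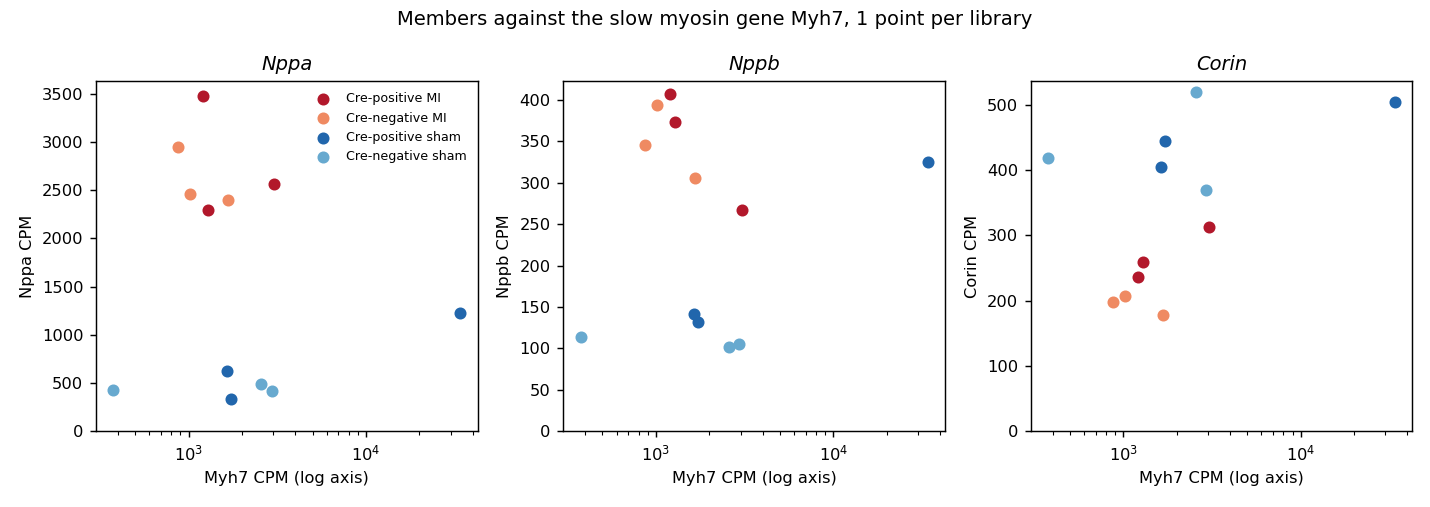
CPM of Nppa, Nppb and Corin against CPM of Myh7 (log axis), 1 point per library, coloured by group. One Cre-positive sham library lies alone at 34063 CPM of Myh7, with Nppa and Nppb above the other sham libraries, and the MI libraries lie high for Nppa at 872 to 3042 CPM of Myh7.

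Markers of cardiomyocytes fell in the hearts in which Corin fell. Of 12 cardiomyocyte markers 9 fell and 0 rose in Cre-positive hearts after infarction, with a median log2 fold change of -0.71 beside -0.74 for Corin. In Cre-negative hearts 11 fell and 0 rose, with a median of -1.17 beside -1.17 for Corin. Npr3, at -0.54 in Cre-positive and -1.23 in Cre-negative hearts, stood beside the same medians. Of all genes tested 19.5% fell in Cre-positive and 24.4% in Cre-negative hearts. Their summed level was 80425 to 95849 CPM in Cre-positive MI and 55647 to 76642 CPM in Cre-negative MI, against 92098 to 164885 CPM in Cre-positive sham and 135549 to 152206 CPM in Cre-negative sham libraries. The lowest Cre-positive sham value, that of replicate 2, lay within the MI values of its genotype. Per 1000 CPM of these markers, Corin stood at 2.57 to 3.27 in Cre-positive MI and 2.57 to 3.19 in Cre-negative MI, against 2.54 to 5.48 in Cre-positive sham and 2.42 to 3.45 in Cre-negative sham libraries, so that all groups overlapped. On the same scale Nppa stood at 26.8 to 37.9 in Cre-positive MI and 35.9 to 43.0 in Cre-negative MI, against 2.02 to 13.4 in Cre-positive sham and 2.75 to 3.22 in Cre-negative sham libraries, and MI and sham did not overlap. The highest Cre-positive sham values, 5.48 for Corin and 13.4 for Nppa, were those of replicate 2, in which the marker Myh6 was low. Replicates 1 and 3 of that group had 2.54 and 2.69 for Corin, and 3.89 and 2.02 for Nppa. Fewer cardiomyocytes and less marker RNA per cell cannot be told apart on this scale. Their part in the levels of Corin, Npr3 and Nppa was not tested.

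Atrial tissue also expresses Nppa, and the part of any atrial tissue in the Nppa levels was not tested. The summed level of 8 atrial markers was 168 to 224 CPM in Cre-positive MI and 100 to 188 CPM in Cre-negative MI, against 138 to 241 CPM in Cre-positive sham and 174 to 234 CPM in Cre-negative sham libraries. Bmp10, a growth factor gene of the atria, had 0 reads in 3 of the 4 groups and 1 library with 0.08 CPM in Cre-positive sham. The atrial myosin light chain gene Myl7 had 13.1 to 27.5 CPM in Cre-positive MI and 0.12 to 22.7 CPM in Cre-negative MI, against 0.64 to 38.9 CPM in Cre-positive sham and 8.09 to 29.3 CPM in Cre-negative sham libraries. Sln, also on the list, had 0.93 to 7.99 CPM in Cre-positive MI and 0 to 4.54 CPM in Cre-negative MI. In sham libraries it had 0.48 to 14.2 CPM in Cre-positive and 2.60 to 5.91 CPM in Cre-negative hearts. Cre-negative MI replicate 1 had 2394 CPM of Nppa with 0.12 CPM of Myl7 and 0 reads of Sln. No library of its group summed below 100 CPM, so other listed genes carried most of the sum there. Cre-positive sham replicate 2 held the highest Myl7 and Sln levels. Of the 6 atrial markers tested, 2 rose (Dkk3 and Gja5) and 1 fell (Kcnj3) after infarction in each genotype. The shares over all genes tested were 25.7% and 19.5% in Cre-positive hearts, and 29.9% and 24.4% in Cre-negative hearts.

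Markers of other cell types moved in their own ways. Endothelial markers summed to 1080 to 1172 CPM in Cre-positive MI and 1139 to 1172 CPM in Cre-negative MI. In sham libraries they summed to 1017 to 1240 CPM in Cre-positive and 1061 to 1222 CPM in Cre-negative hearts. All 10 had reads in every group. Markers of smooth muscle and pericytes summed to 1409 to 1561 CPM in Cre-positive MI and 1431 to 1521 CPM in Cre-negative MI, against 1326 to 1500 CPM in Cre-positive sham and 1535 to 1650 CPM in Cre-negative sham libraries. Fibroblast markers summed to 11859 to 13134 CPM in Cre-positive MI and 15973 to 17735 CPM in Cre-negative MI. In sham libraries they summed to 904 to 1282 CPM in Cre-positive and 1740 to 2224 CPM in Cre-negative hearts. They include Postn, the periostin gene, which carries the MerCreMer allele in Cre-positive mice. Postn averaged 635 CPM in Cre-positive MI and 1616 CPM in Cre-negative MI. After sham surgery it averaged 8.47 CPM in Cre-positive and 86.8 CPM in Cre-negative hearts, a difference called by edgeR (adjusted p = 0.00227). The part of the allele in these sums was not tested. Macrophage markers summed to 1340 to 1502 CPM in Cre-positive MI and 1794 to 1986 CPM in Cre-negative MI, against 99.5 to 355 CPM in Cre-positive sham and 290 to 338 CPM in Cre-negative sham libraries. The part of these cells in the levels of the members was not tested.

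Other genes that make, cut or remove the peptides changed little or fell. Of 6 genes listed 5 were tested, since Ostn, whose product binds the clearance receptor, had reads in 1 library only. In Cre-positive hearts 0 rose and 1 fell after infarction, Ide, the insulin-degrading enzyme, with a log2 fold change of -0.70 ± 0.25 (adjusted p = 0.0373), beside -0.54 ± 0.25 with no call in Cre-negative hearts. In Cre-negative hearts 0 rose and 3 fell, where 29.9% of all tested genes rose and 24.4% fell (25.7% and 19.5% in Cre-positive hearts). The neprilysin gene Mme, whose enzyme degrades natriuretic peptides, fell by 0.77 ± 0.22 (adjusted p = 0.0107), the peptidase gene Dpp4 by 0.69 ± 0.24 and Pcsk6, the convertase gene that activates Corin, by 0.67 ± 0.26 (adjusted p = 0.0433). In Cre-positive hearts none of these 3 was called. Furin, a general proprotein convertase that cuts pro-BNP, was not called in either genotype, with log2 differences of 0.01 ± 0.12 in Cre-positive and 0.30 ± 0.12 in Cre-negative hearts. No gene of this list differed between genotypes in its injury response by edgeR.

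Genes that handle cyclic GMP, the messenger made by Npr1 and Npr2, moved both ways. Of 24 listed 23 were tested, and 9 rose and 3 fell in Cre-positive hearts (median log2 fold change 0.26), while 7 rose and 2 fell in Cre-negative hearts (median 0.14). Over all genes tested 25.7% rose and 19.5% fell in Cre-positive hearts, and 29.9% rose and 24.4% fell in Cre-negative hearts. The median over all genes was 0.02 in each genotype. Pde1a, a calcium-dependent phosphodiesterase, rose by 1.54 ± 0.14 on the log2 scale in Cre-positive and by 1.54 ± 0.14 in Cre-negative hearts. Vasp, an actin regulator phosphorylated by cyclic GMP-dependent kinase, rose by 0.79 ± 0.12 and by 1.34 ± 0.12 in these hearts. Pde5a, the phosphodiesterase blocked by sildenafil, rose by 1.08 ± 0.18 in Cre-positive and by 0.80 ± 0.18 in Cre-negative hearts. Pde1b rose by 1.44 ± 0.35 in Cre-positive and by 2.34 ± 0.35 in Cre-negative hearts. Pde3a, a phosphodiesterase of cyclic AMP that cyclic GMP inhibits, fell by 1.16 ± 0.18 in Cre-positive and by 1.10 ± 0.18 in Cre-negative hearts (adjusted p = 0.000224 and 0.000233). Pde1c fell by 0.65 ± 0.18 and by 0.89 ± 0.18 in these hearts, and Mrvi1, a substrate of the cyclic GMP-dependent kinase, fell by 0.39 ± 0.14 in Cre-positive hearts and was not called in Cre-negative hearts (-0.28 ± 0.14).

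Among transcription factors and cofactors known to act on Nppa or Nppb, more fell than rose. The list holds activators as well as repressors, so its counts give no direction of effect on the hormone genes. Of 24 tested 2 rose and 14 fell in each genotype, with a median log2 fold change of -0.52 in Cre-positive and -0.43 in Cre-negative hearts. Among all tested genes 25.7% rose and 19.5% fell in Cre-positive hearts, and 29.9% rose and 24.4% fell in Cre-negative hearts. The calcineurin-regulated factor gene Nfatc4 rose by 1.37 ± 0.17 in Cre-positive and by 1.57 ± 0.17 in Cre-negative hearts, and the SRF coactivator gene Mkl1 by 0.83 ± 0.15 and by 1.10 ± 0.15. Hopx, a homeodomain protein gene that restrains SRF, fell by 1.08 ± 0.12 and by 1.44 ± 0.12 on the log2 scale. Klf15 fell by 0.96 ± 0.17 in Cre-positive and by 1.63 ± 0.17 in Cre-negative hearts. The class II histone deacetylase gene Hdac4 fell by 0.55 ± 0.10 and by 0.91 ± 0.10, and its relative Hdac5 by 0.68 ± 0.11 and by 0.67 ± 0.11. Mef2d fell by 0.59 ± 0.10 and by 0.56 ± 0.10. These falls stand beside those of the cardiomyocyte markers given above.

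Other load and stress genes of the cardiomyocyte were mixed. Of 12 tested 4 rose and 3 fell in Cre-positive hearts (median log2 fold change 0.26), and 6 rose and 2 fell in Cre-negative hearts (median 0.47). For all genes tested, 25.7% rose and 19.5% fell in Cre-positive hearts, and 29.9% rose and 24.4% fell in Cre-negative hearts (median 0.02 in each). Xirp2, a protein of the intercalated disc, rose by 1.47 ± 0.22 in Cre-positive and by 1.25 ± 0.22 in Cre-negative hearts. The secreted stress factor gene Gdf15 rose by 1.71 ± 0.41 and by 2.42 ± 0.41. Acta1 rose by 2.78 ± 0.53 in Cre-positive and by 2.21 ± 0.51 in Cre-negative hearts. Rcan1, a target of calcineurin signalling, was not called in Cre-positive hearts (0.28 ± 0.16) and rose by 0.77 ± 0.16 in Cre-negative hearts. Myh7b fell by 1.21 ± 0.20 and by 1.81 ± 0.21 on the log2 scale, Csrp3 by 0.48 ± 0.15 in both genotypes, and Xirp1 by 0.69 ± 0.13 in Cre-positive hearts, with -0.28 ± 0.13 and no call in Cre-negative hearts. Whether these responses differ between genotypes is given by the test of the injury response, which by edgeR called no gene (34 by DESeq2).

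**Figure D5:**
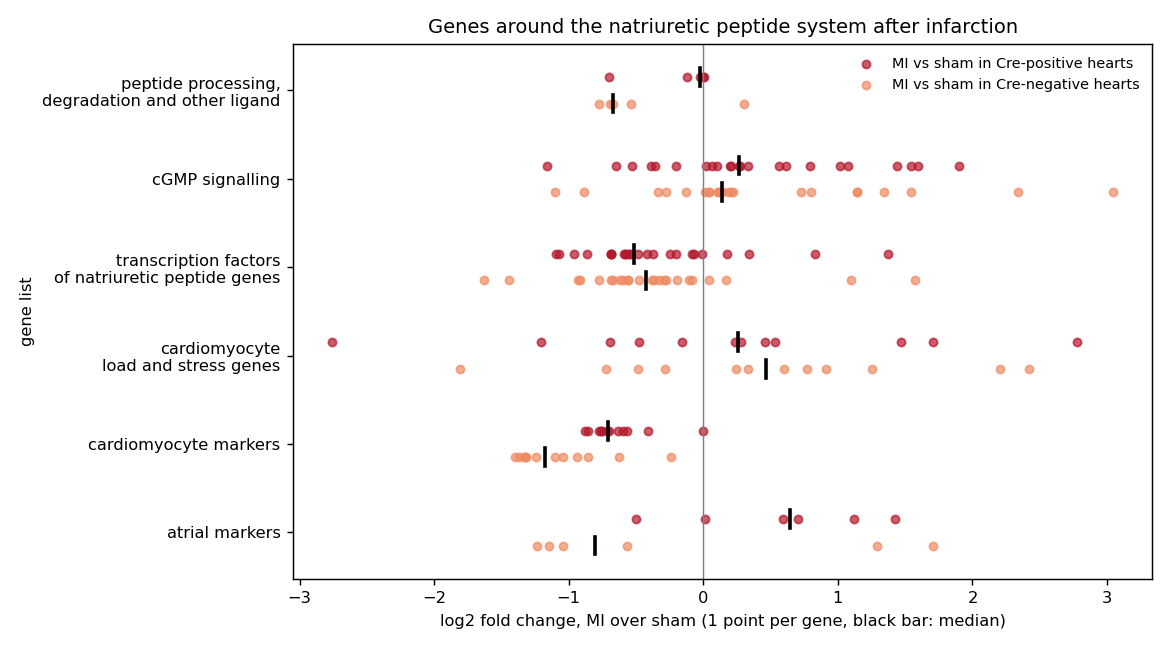
Log2 fold change of MI over sham for each tested gene of 6 lists, with 1 point per gene, a black bar at the median, and Cre-positive above Cre-negative hearts. Cardiomyocyte markers lie left of 0 with medians of -0.71 and -1.17, and the transcription factors have medians of -0.52 and -0.43.

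The genes next to the hormone genes on chromosome 4 are given beside the share over all genes. After infarction 45.2% of all genes tested were called in Cre-positive and 54.3% in Cre-negative hearts. Of the 10 listed genes taken, the nearest ones on each side of the pair in equal number, at 2.19 to 128 kb, 9 were tested. In Cre-positive hearts 0 rose and 3 fell after infarction, which were Fv1 (-1.28 ± 0.33), the mitofusin gene Mfn2 (-0.96 ± 0.12) and the chloride transporter gene Clcn6 (-0.54 ± 0.14), the closest gene. In Cre-negative hearts Fv1 (-1.01 ± 0.34) and Mfn2 (-1.03 ± 0.12) fell, 2510039O18Rik rose by 0.25 ± 0.08, and Clcn6 stood at -0.01 ± 0.14 (all log2 fold changes ± SE). The highest log2 fold change among the 9 was 0.19 in Cre-positive and 0.36 in Cre-negative hearts, below those of Nppa and Nppb in the same hearts.

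The genes most like each member over the 12 libraries were found by Pearson's r of log2 CPM among 11839 candidates, as a description. The libraries fall into MI and sham clusters, so that r mostly follows surgery, and r of the deviations from the 4 group means is given beside it. For Nppa the highest were Nectin1 (r = 0.97, deviations 0.79), Jazf1 (0.97, 0.78), Wdr62 (0.97, 0.86), Itgb3 (0.97, 0.82) and Arl4c (0.97, 0.85). For Nppb they were Arid5a (0.98, 0.93), Nedd9 (0.97, 0.89), Tnfrsf12a (0.96, 0.91), Baz1a (0.96, 0.95) and Ccdc6 (0.95, 0.87). For Npr3 they were Tcf15 (0.98, 0.82), Oplah (0.98, 0.93), Ablim1 (0.97, 0.89), Gstm5 (0.97, 0.90) and March2 (0.97, 0.84). For Corin they included Tmem205 (0.99, 0.86), Acsl1 (0.99, 0.84), Tmem245 (0.98, 0.94) and March6 (0.98, 0.79). Between members, r was 0.96 (deviations 0.85) for Npr3 with Corin and 0.94 (0.80) for Nppa with Nppb. Cre-positive sham replicate 2 contributes to each of these values.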

How the data were processed

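Left ventricle RNA of 12 libraries was sequenced, and per the submitters' processing notes Bowtie2 2.2.5 and RSEM 1.2.12 were used with mm10. Per the file headers, the authors deposited RSEM expected counts and FPKM values per gene. Strand handling is not given in the sources used here. The authors also deposited DESeq2 comparison tables with log2 fold changes and p-values, quoted for the members only. A gene missing from a library file was taken as 0, and expected counts were rounded (74.0% of values above 0 were whole to within 0.005).

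In R 4.3.3 with edgeR 4.0.16, genes were filtered by filterByExpr (minimum count 10), libraries were scaled by TMM, and all 12 libraries entered 1 quasi-likelihood model of the 4 groups, with 8 residual and 4.16 prior degrees of freedom. P-values are two-sided, adjusted within each contrast. An exact permutation test of 3 against 3 libraries cannot go below 0.1 and was not used. The model was tested on simulated counts first. Alternatives were RLE scaling, no filter, DESeq2 1.42.0, fits of 2 groups, a replicate block, a term for libraries with Y-linked reads (at least 10 CPM), and leaving out each library. Log2 CPM for likeness used a prior count of 2.

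Named genes are the members and up to 3 called genes per direction and list with the smallest p. The 10 neighbours (5 nearest on each side) and the 5 genes most like a member are also named. A gene that meets this rule and a coding sequence are not reported here. Values quoted for Cre-positive sham replicate 2 and for atrial genes were chosen after they were seen. The members, lists and tests were chosen with earlier results of these data known. Positions and upstream windows are from RefSeq GRCm38.p6, which matched 17436 of 17471 genes by identifier and all 7 members. Protein sequences were not used here.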

Additional observations from a re-analysis of the deposited data

How the results depend on the processing

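Over all alternatives, 534 values of the members were recomputed, of which 526 kept their side of the threshold and, where called, their direction, and 8 lost a call. The 8 were Nppb (6 settings), Npr2 and Npr3 (1 each), all for infarction in Cre-positive hearts. Beside the libraries named above, Nppb lost its call in the fit of the 2 groups alone (adjusted p = 0.107) and with the term for Y-linked reads (0.0617), and Npr2 in the fit of the 2 groups alone (0.051). The number of members called there was 5, with 3 in the fit of the 2 groups and 3 to 5 when 1 library was left out, the lowest without Cre-positive MI replicate 3. It was 5 in Cre-negative hearts and 0 in the other comparisons under every alternative.

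Counts over all genes moved more. For the genotypes after infarction 0 genes were called, against 167 by DESeq2, 1 in the fit of the 2 groups and 0 to 3 with 1 library left out (3 without Cre-positive sham replicate 2). After sham surgery 7 were called, against 36 by DESeq2, 0 in the fit of the 2 groups and 3 to 7 with 1 library left out (3 without Cre-negative sham replicate 1). For the difference of the injury response 0 were called, against 34 by DESeq2, 2 without a filter and 0 to 1 with 1 library left out. The cause was not tested. Correlations of the deviations of same-numbered libraries ran from -0.15 to 0.29 over 18 pairs, so the numbers were not taken to pair them. That 8 of 12 libraries were closest to their own number is a hint from the data, not the design. With replicate number as a block, 5 members were called after infarction in each genotype and 7 genes between genotypes after sham surgery. Nppc was too shallow for a test at these depths.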

Other observations

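The balance between members is given per library in FPKM, as values with no test. The ratio of Nppa to Nppb was 5.56 to 8.69 in Cre-positive MI and 5.64 to 7.73 in Cre-negative MI, against 2.28 to 3.96 in Cre-positive sham and 3.39 to 4.33 in Cre-negative sham libraries. The ratio of the hormone gene Nppa to its processing enzyme gene Corin was 47.2 to 85.7 in Cre-positive MI and 68.9 to 86.4 in Cre-negative MI, against 4.35 to 14.1 in Cre-positive sham and 5.40 to 6.55 in Cre-negative sham libraries. The ratio of the signalling receptor gene Npr1 to the clearance receptor gene Npr3 was 3.19 to 3.94 in Cre-positive MI and 4.03 to 5.04 in Cre-negative MI, against 2.13 to 2.21 in Cre-positive sham and 1.52 to 2.18 in Cre-negative sham libraries. The Npr1 to Npr3 ratio did not overlap between Cre-positive and Cre-negative MI libraries, and neither did Npr3 alone. Single genes did not overlap in that comparison for 27.2% of all genes tested. Neither Npr1 nor Npr3 was called there by edgeR, and no test of the ratio was made.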
